A study of Mus musculus with 6 samples.

Results

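The genes described here are the integrins and the proteins of focal adhesions, the sites where a cell holds on to the matrix around it. The members were every gene with an integrin alpha or beta symbol (Itga or Itgb followed by its subunit number or letter) plus 11 named adhesion genes. Of these, 34 genes with 79 probe sets were measured, out of 18029 named genes in a table of 38195 probe sets. They comprised 16 alpha subunits, 8 beta subunits and 10 proteins that act inside the cell. Itga11, Itgad and Ptk2 were not analysed here. RNA came from hearts of 3 Tmbim1 KO mice and 3 Flox wild type mice, on 1 array per mouse, all on a C57BL/6 background. The mice were aged 8 weeks, and the hearts of all 6 were taken 2 weeks after aortic banding (called binding in the labels), a constriction that loads the left ventricle with pressure. How the deletion was made, in which cells it acts and which part of the heart was taken are not given in the sources used here, and hearts without surgery were not analysed here. The comparison therefore describes a difference between genotypes in banded hearts.

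An integrin is a pair of 1 alpha and 1 beta subunit that spans the cell membrane, binds matrix proteins outside the cell and is coupled to actin inside it. Talin and kindlin bind the tail of the beta subunit and switch the receptor on, vinculin and zyxin strengthen the link to actin under tension, and a scaffold of ILK, PINCH and parvin carries signals onward. In heart muscle cells these proteins sit at the costamere, where the sarcomere is anchored to the membrane and mechanical force passes between the cell and its matrix.

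Signals are given on the deposited log2 scale, on which a step of 1 is a doubling. A difference is the mean of Tmbim1 KO hearts minus that of Flox wild type hearts, n = 3 mice in each group. P-values are from limma, adjusted by the Benjamini-Hochberg method over all 38195 probe sets, and a gene is said to have risen or fallen only at an adjusted p under 0.05. Each gene is given by its main probe set, the brightest over the 6 arrays, unless another is named. Signals of different probe sets are not comparable with each other. Tmbim1 stood at 7.53, 7.49 and 7.56 in Tmbim1 KO hearts, against 8.58, 8.38 and 8.33 in Flox wild type hearts, which checks the labels. Heart muscle markers were bright, with a summed linear signal over 10 genes of 87590 to 90730 in Tmbim1 KO hearts and 94760 to 98270 in Flox wild type hearts, and 0 of these genes passed the threshold. Atrial markers were summed at 35150 in Tmbim1 KO replicate 1, above 13000 and 10770 in the other Tmbim1 KO hearts and 3994 to 6809 in Flox wild type hearts. Nppa, the brightest of them on every array, weighs most in this linear sum. Myl7 was 12.86 in Tmbim1 KO replicate 1, against 3.90 and 3.71 in the other Tmbim1 KO hearts and 3.45 to 3.80 in Flox wild type hearts. Myl4 and Sln were likewise high in Tmbim1 KO replicate 1 alone, at 12.98 and 12.17. In all, 161 probe sets passed, and this count lay between 38 and 86 when any single array was left out.

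Among the 34 members, 1 changed past the threshold. Itgb6, the beta subunit that pairs with alpha v, fell, and 0 members rose. Over all genes, 0.549% passed at their main probe set in either direction, 0.322% higher and 0.227% lower. The members' differences had a median of 0.04, against 0.00 over all genes, and 19 of them, or 55.9%, were positive, against 49.4% of all genes. Before adjustment, 4 members (11.8%) had a limma p under 0.05, close to the 11.5% of all genes. The 3 Tmbim1 KO arrays lay wholly above or below the 3 Flox wild type arrays in 7 members, or 20.6%, against 16.7% of all genes. For the 33 members other than Itgb6 the 95% interval of the difference stayed within a 2-fold change in either direction, and for 28 of them within a 1.5-fold change. The upper end of the interval passed a 1.5-fold change for Itga5, Itga9, Itgb3, Itgb8 and Zyx. These counts hold for main probe sets only. Other probe sets could reach further, such as ones of Tln1 and Lims1 with upper ends of 0.83, against 0.585 for a 1.5-fold change.

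**Figure D1:**
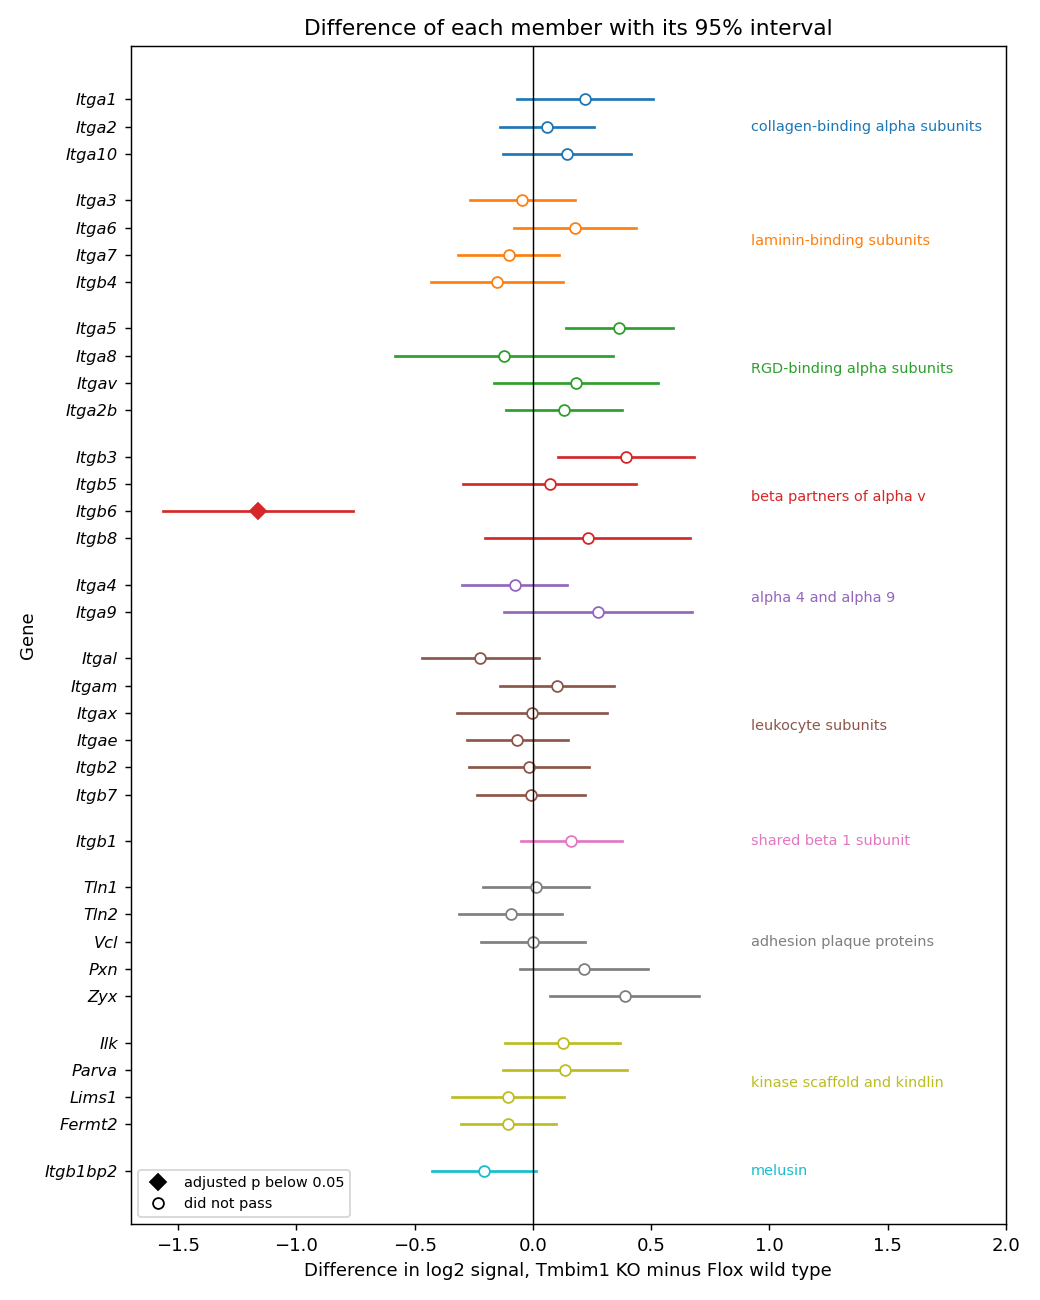
Difference in log2 signal, Tmbim1 KO minus Flox wild type, of each of the 34 members at its main probe set, grouped by role, with bars for the 95% interval from limma (n = 3 mice in each group). Itgb6 at -1.16 stands apart, and the intervals of all other members except Itga5, Itgb3 and Zyx include 0.

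Itgb6 encodes a subunit known mainly from epithelia, where the receptor it forms with alpha v activates latent TGF-beta. Its RefSeq promoter windows (GRCm38.p6, each from 250 bases before to 50 bases after an annotated start, minus strand) are shown because it is the member that fell and the table gives it more than 1 start. They were searched on both strands for the AP-1 site TGANTCA, the CRE site TGACGTCA, the GC box GGGCGG and the CArG box of serum response factor, and matches are in capitals.
Itgb6, chr2:60722554-60722853: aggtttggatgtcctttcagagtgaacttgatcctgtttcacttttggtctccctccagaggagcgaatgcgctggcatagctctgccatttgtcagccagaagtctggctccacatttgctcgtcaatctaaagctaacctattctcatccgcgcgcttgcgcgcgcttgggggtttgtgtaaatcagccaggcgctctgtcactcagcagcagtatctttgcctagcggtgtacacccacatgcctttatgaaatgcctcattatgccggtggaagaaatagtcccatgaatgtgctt
Itgb6, chr2:60673644-60673943: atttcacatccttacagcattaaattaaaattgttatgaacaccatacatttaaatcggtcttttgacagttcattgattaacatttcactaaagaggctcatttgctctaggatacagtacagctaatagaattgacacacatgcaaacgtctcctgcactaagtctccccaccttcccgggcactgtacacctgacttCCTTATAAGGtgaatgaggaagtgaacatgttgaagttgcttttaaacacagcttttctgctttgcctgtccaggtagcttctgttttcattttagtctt
The second window holds 1 CArG box, which overlaps no other match, and the first holds 0 matches. Over the 32851 windows of the table, 1.63% hold a CArG box, 7.81% the AP-1 site, 1.79% the CRE site and 35.7% the GC box. A match is a run of letters and no evidence of binding. Where the probes of the array lie relative to these starts was not analysed here.

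The Itgb6 signal was 2.98, 2.79 and 2.89 in Tmbim1 KO hearts, against 3.56, 4.31 and 4.27 in Flox wild type hearts. All 3 Tmbim1 KO values lay below all 3 Flox wild type values, and Flox wild type replicate 1 was the lowest of its group. The means were 2.89 ± 0.10 in Tmbim1 KO and 4.05 ± 0.42 in Flox wild type hearts (SD, n = 3 each), a difference of -1.16 (SE 0.18, 95% interval -1.56 to -0.76, limma adjusted p = 0.0347). This is a 2.24-fold lower signal. The Tmbim1 KO values lay just above the lower quartile of signals on the arrays, 2.72 to 2.78, so the size of the fall is uncertain at its low end. The gene's other probe set did not pass. It stood at 2.96, 2.95 and 3.43 in Tmbim1 KO hearts, against 3.17, 2.85 and 3.53 in Flox wild type hearts, and the groups overlapped (difference -0.07, limma adjusted p = 0.950). Its mean was above that of the main probe set in Tmbim1 KO hearts (3.12 and 2.89) and below it in Flox wild type hearts (3.18 and 4.05). The choice of the main probe set of Itgb6 therefore rests on its Flox wild type values, which also enter the difference. With the mean of both probe sets the difference was -0.61 and the call was lost (limma adjusted p = 0.120).

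With single arrays left out, Itgb6 kept its call without Flox wild type replicate 1 (-1.40, limma adjusted p = 0.00446). It lost it without Tmbim1 KO replicate 1, 2 or 3 (limma adjusted p = 0.105, 0.166 and 0.109) and without Flox wild type replicate 2 or 3 (0.0982 and 0.105). In the same hearts 0 of 10 epithelial markers passed, and 0 had a limma p under 0.05 before adjustment. Their summed linear signal was 166.4 to 201.6 in Tmbim1 KO hearts and 161.7 to 182.2 in Flox wild type hearts, so the groups overlapped. The epithelial cadherin gene Cdh1 was below the lower quartile on all 6 arrays. Of 8 mesothelial and epicardial markers, 0 passed, with Wt1 at 0.60 (limma adjusted p = 0.149) and the mesothelin gene Msln below the lower quartile on all 6 arrays. Their summed linear signal was 102.9 to 114.8 in Tmbim1 KO hearts and 95.9 to 98.9 in Flox wild type hearts, without overlap. Wt1 alone of these markers separated the groups, and the rest lay between -0.09 for Upk1b and 0.13 for Krt19. The part of these markers in the Itgb6 value was not tested. In RNA from whole tissue, fewer cells of a type and less RNA per cell cannot be told apart.

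**Figure D2:**
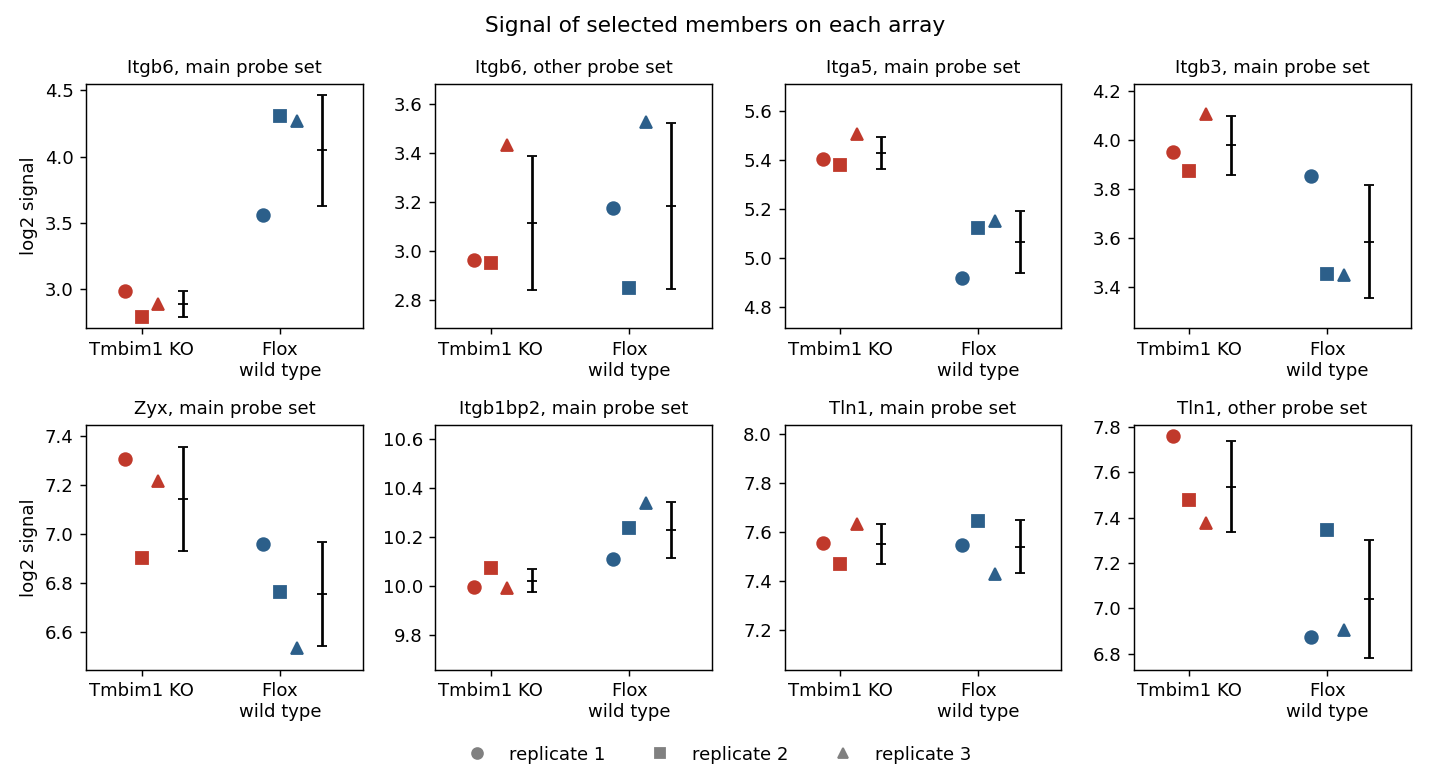
Log2 signal on each array for selected members, with Tmbim1 KO hearts on the left and Flox wild type hearts on the right of each panel. Symbols mark the replicate, bars show the mean and SD of 3 mice, and the panels have different signal ranges. The main probe set of Itgb6 separates the groups by the widest gap, while its other probe set overlaps.

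The other beta subunits that pair with alpha v did not pass. Itgb3, the beta subunit of the vitronectin receptor and of the platelet fibrinogen receptor, was 3.95, 3.87 and 4.11 in Tmbim1 KO hearts, against 3.85, 3.45 and 3.45 in Flox wild type hearts. The groups did not overlap, although Flox wild type replicate 1 reached nearly to Tmbim1 KO replicate 2. The difference was 0.39 (SE 0.13, 95% interval 0.10 to 0.68, unadjusted p = 0.0125, limma adjusted p = 0.286), and the dimmer probe set of Itgb3 was at -0.17. Both probe sets of Itgb3 lay below the median signal of all probe sets, 4.26. Itgb5 was at 0.07 and Itgb8, which also takes part in TGF-beta activation, at 0.23. For both, Flox wild type replicate 3 was the lowest of the 6 arrays, at 8.50 for Itgb5 and 3.44 for Itgb8. Without that array Itgb5 turned to -0.11 and Itgb8 to -1.23e-05, which is no difference on this scale.

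The alpha subunits that recognise the RGD sequence of fibronectin and vitronectin were led by Itga5, the fibronectin receptor. Itga5 stood at 5.41, 5.38 and 5.50 in Tmbim1 KO hearts, against 4.92, 5.12 and 5.15 in Flox wild type hearts. Every Tmbim1 KO value was above every Flox wild type value. The difference of 0.37 (SE 0.10, 95% interval 0.14 to 0.59, unadjusted p = 0.00495) had the smallest p of the members that did not pass, with a limma adjusted p of 0.200. Of its other 3 probe sets, 2 were positive, at 0.20 and 0.24, and the last was at 0.00. Itgav, the alpha v subunit itself, was 8.79, 8.74 and 8.53 in Tmbim1 KO hearts, against 8.81, 8.54 and 8.17 in Flox wild type hearts. The groups overlapped, with Flox wild type replicate 1 the highest of the 6 arrays and Flox wild type replicate 3 the lowest (difference 0.18, 95% interval -0.16 to 0.53, limma adjusted p = 0.773). The nephronectin receptor gene Itga8 was at -0.12, with an interval of -0.58 to 0.34 that was the widest among the 33 members. The platelet subunit gene Itga2b was at 0.13, and the summed linear signal of 8 platelet markers was 399.0 to 471.9 in Tmbim1 KO hearts and 348.2 to 424.2 in Flox wild type hearts.

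Itgb1, the subunit shared by most matrix integrins of heart muscle, showed a small separation that did not pass. It was 9.34, 9.21 and 9.21 in Tmbim1 KO hearts, against 9.16, 9.01 and 9.11 in Flox wild type hearts. The groups did not overlap, and the gap between their nearest values was small beside the distance between replicates (difference 0.16, SE 0.10, 95% interval -0.05 to 0.38, limma adjusted p = 0.628). The other bright probe sets of Itgb1 gave 0.14 each, while 3 further ones lay below the lower quartile on all 6 arrays.

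Collagen receptors were all on the positive side without passing. Itga1 was at 0.22, Itga10 at 0.14 and Itga2 at 0.06. Itga10 (means 3.58 in Tmbim1 KO and 3.44 in Flox wild type hearts) and Itga2 (2.97 and 2.91) were dim, below the median signal of 4.26. Laminin receptors were mixed, with Itga6 at 0.18, Itga3 at -0.04 and Itgb4, the partner of alpha 6 in epithelia, at -0.15. Itga7, the main laminin receptor subunit of muscle, was 6.57, 6.79 and 6.68 in Tmbim1 KO hearts, against 6.76, 6.79 and 6.78 in Flox wild type hearts. Tmbim1 KO replicate 1 was the lowest and the groups overlapped (difference -0.10, 95% interval -0.32 to 0.11, limma adjusted p = 0.803). Itga4, which binds VCAM-1 and fibronectin, was at -0.08, and Itga9, which binds tenascin C, at 0.27, or 0.08 without Flox wild type replicate 3. A dimmer probe set of Itga9 separated the groups, at 5.22, 5.05 and 5.11 in Tmbim1 KO hearts, against 4.76, 5.01 and 4.24 in Flox wild type hearts. It did not pass (difference 0.46, unadjusted p = 0.0247, limma adjusted p = 0.367).

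Of the 6 integrin genes of white blood cells, 0 passed and 5 were negative. Itgb2, the beta subunit common to the leukocyte receptors, was at -0.02 (95% interval -0.27 to 0.24), Itgam, the alpha subunit of the complement receptor on macrophages and neutrophils, at 0.10, Itgax at 0.00, Itgae at -0.07 and Itgb7 at -0.01. Itgam (means 3.27 in Tmbim1 KO and 3.17 in Flox wild type hearts), Itgae (2.92 and 2.99) and Itgax (3.82 in both) were dim. They lay below the median signal of all probe sets, 4.26, where differences can be compressed. Itgb2 and Itgb7 lay above it. The other probe set of Itgae, below the lower quartile on all 6 arrays, was at -0.25 without overlap between the groups (unadjusted p = 0.0226, limma adjusted p = 0.353), and the mean of both was at -0.16. Of 11 macrophage and monocyte markers, 0 passed, 9 were positive and 2 negative, and the list median was 0.31. Before adjustment, 6 of the 11 had a limma p under 0.05 with a positive difference, against 5.19% of all genes. Among these, C1qa was at 0.42 and Fcgr1 at 0.40. The 2 negative markers were Cx3cr1 at -0.24 and Ccr2 at -0.11. The summed linear signal of all 11 markers was 3636 to 4073 in Tmbim1 KO hearts and 2757 to 3612 in Flox wild type hearts, without overlap. Of 7 neutrophil markers, 0 passed, 4 were positive and 3 negative, and the median was 0.14. Before adjustment, 2 of them (28.6%) had a limma p under 0.05, both with a positive difference. These were S100a9 at 1.32 (limma adjusted p = 0.0641) and S100a8 at 0.95 (0.109). The rest of the neutrophil list lay between -0.03 for Mpo and 0.16 for Ngp. The summed linear signal of the neutrophil markers was 161.8 to 206.5 in Tmbim1 KO hearts and 123.7 to 137 in Flox wild type hearts, without overlap. The difference between the integrin and marker values was itself not tested. Itgal, the alpha subunit of LFA-1 on lymphocytes, was 3.70, 3.70 and 3.51 in Tmbim1 KO hearts, against 3.73, 3.82 and 4.02 in Flox wild type hearts. The groups did not overlap, with Flox wild type replicate 1 close to the Tmbim1 KO values (difference -0.22, 95% interval -0.47 to 0.03, limma adjusted p = 0.534). Itgal was dim as well, with means of 3.64 in Tmbim1 KO and 3.86 in Flox wild type hearts, below the median signal of 4.26. Of 8 T and NK cell markers 0 passed and 6 were negative, with a summed linear signal of 145.4 to 162.3 in Tmbim1 KO hearts and 150.8 to 177.4 in Flox wild type hearts.

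Among the proteins on the inner face of the adhesion, 0 passed, and Zyx had the largest difference. Zyx encodes zyxin, which moves to adhesions and actin fibres under tension. It was 7.31, 6.90 and 7.22 in Tmbim1 KO hearts, against 6.96, 6.76 and 6.54 in Flox wild type hearts. The groups overlapped, since Flox wild type replicate 1 stood above Tmbim1 KO replicate 2. The difference was 0.39 (SE 0.14, 95% interval 0.07 to 0.70, unadjusted p = 0.0203, limma adjusted p = 0.340), and the other probe set of Zyx was at 0.26. Pxn, the adaptor paxillin, was at 0.22.

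Talin and vinculin genes did not pass at any of their probe sets. Vcl was 9.48, 9.43 and 9.51 in Tmbim1 KO hearts, against 9.51, 9.34 and 9.57 in Flox wild type hearts. The Tmbim1 KO values lay inside the range of the Flox wild type values, and the difference of 0.00, negative after median centring, had an interval of -0.22 to 0.22. Tln1, the talin of most tissues, was 7.56, 7.47 and 7.63 in Tmbim1 KO hearts, against 7.55, 7.64 and 7.43 in Flox wild type hearts. The groups overlapped fully (difference 0.01, 95% interval -0.21 to 0.24). A second probe set of Tln1 of like brightness gave another picture. It was 7.76, 7.48 and 7.38 in Tmbim1 KO hearts, against 6.87, 7.34 and 6.91 in Flox wild type hearts. There the groups did not overlap, although Flox wild type replicate 2 came close to Tmbim1 KO replicate 3 (difference 0.50, SE 0.15, unadjusted p = 0.00776, limma adjusted p = 0.239). Tln2, the talin that prevails in mature heart muscle, was 7.45, 7.55 and 7.58 in Tmbim1 KO hearts, against 7.73, 7.55 and 7.58 in Flox wild type hearts. All 3 of its probe sets were negative, at -0.09, -0.08 and -0.19, without passing.

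Of the 4 genes of the ILK scaffold and its kindlin partner, 0 passed. Ilk, the pseudokinase at its centre, was 7.54, 7.52 and 7.60 in Tmbim1 KO hearts, against 7.35, 7.63 and 7.31 in Flox wild type hearts. Flox wild type replicate 2 was the highest of the 6 arrays and the groups overlapped (difference 0.13, 95% interval -0.12 to 0.37, limma adjusted p = 0.779). Parva, which ties ILK to actin, was at 0.14, Lims1, which encodes PINCH1, at -0.11 and Fermt2, the kindlin of heart muscle, at -0.10. For Fermt2 the 3 Tmbim1 KO values, 10.24 to 10.31, lay just below the Flox wild type values, 10.35 to 10.41. A dimmer probe set of Lims1 was at 0.37, so its probe sets disagreed in direction.

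Itgb1bp2 encodes melusin, a muscle protein that binds the beta 1 tail and is known from mouse studies as a sensor of pressure load. It was 9.99, 10.07 and 9.99 in Tmbim1 KO hearts, against 10.11, 10.24 and 10.34 in Flox wild type hearts. All Tmbim1 KO values lay below all Flox wild type values, with a small gap. The difference of -0.21 (SE 0.10, 95% interval -0.43 to 0.01, limma adjusted p = 0.505) did not pass and ranged from -0.15 to -0.27 with single arrays left out. In the same hearts all 10 heart muscle markers were negative, without passing, with a median of -0.13, 8 of them without overlap between the groups, against 9.38% of all genes with the Tmbim1 KO arrays below. The part of that shift in the melusin value was not tested.

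**Figure D3:**
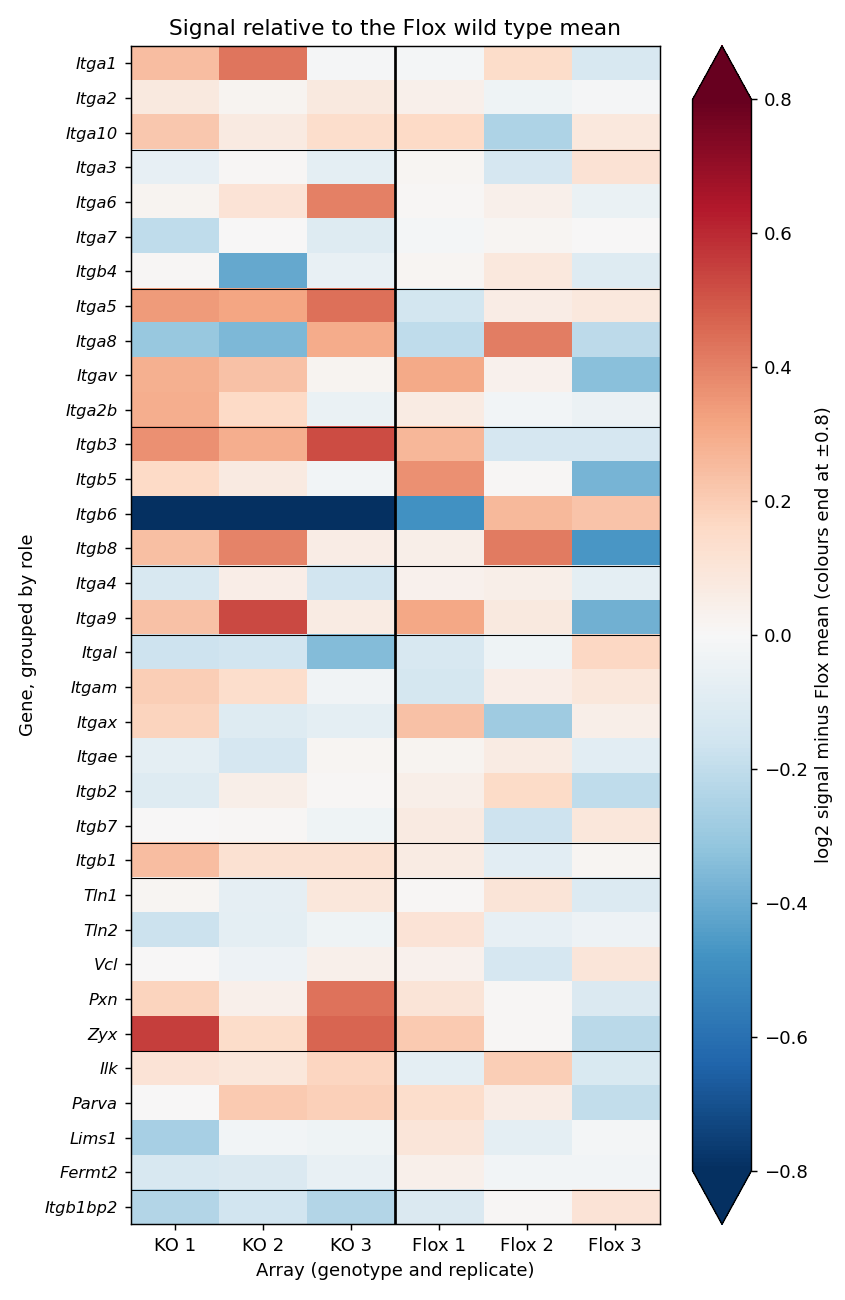
Log2 signal of each member at its main probe set on each array, minus the mean of the Flox wild type arrays, with Tmbim1 KO arrays left of the line and Flox wild type arrays right of it. Colours end at 0.8 in either direction, which Itgb6 exceeds in all 3 Tmbim1 KO hearts. Flox wild type replicate 3 is pale to dark blue for Itgav, Itgb5, Itgb8 and Itga9.

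No array was the highest or the lowest for all members. Flox wild type replicate 3 was the lowest of the 6 arrays for 13 members, or 38.2%, while over all genes it was lowest in 21.0%. It was the highest for 5 members, Tmbim1 KO replicate 1 for 5, and Flox wild type replicate 2 for 9. Over all genes these arrays were the highest in 20.4%, 14.4% and 16.6%. The SD was larger in Flox wild type than in Tmbim1 KO hearts for 24 members and smaller for 10. The SD count over all genes is not given here. The median SD was 0.11 in Tmbim1 KO and 0.13 in Flox wild type hearts. The members' median difference of 0.04 was 0.02 without Flox wild type replicate 3, and 0.06 without Flox wild type replicate 1, Flox wild type replicate 2 or Tmbim1 KO replicate 2. It was 0.01 with dim probe sets left out.

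Several members that kept their sign with any single array left out came closer to 0 by over 1.5 times without a particular one. Without Flox wild type replicate 3, Itga9 was at 0.08, Parva at 0.04, Ilk at 0.07, Itgav at 0.01 and Itgal at -0.14. Without Flox wild type replicate 2, Itga10 was at 0.02, and without Flox wild type replicate 1, Itgam was at 0.03 and Tln2 at -0.04. Without Tmbim1 KO replicate 1, Itga2b was at 0.05, Itga7 at -0.05 and Lims1 at -0.03. Without Tmbim1 KO replicate 2, Itga1 was at 0.12, Itgb4 at -0.02 and Itgae at -0.03. Without Tmbim1 KO replicate 3, Itga6 was at 0.06, Pxn at 0.11 and Itga4 at -0.04. None of these values passed the threshold with all 6 arrays or with the array left out.

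Probe sets of the same member often disagreed. Of 22 members with several probe sets, 9 had all of them on the same side of 0. Of 12 members with more than 1 probe set above the median signal of the table, 9 had these brighter ones on the same side. The exceptions were Itgb5, Lims1 and Tln1. Over the 79 member probe sets, 1 passed, against 0.422% of all probe sets.

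**Figure D4:**
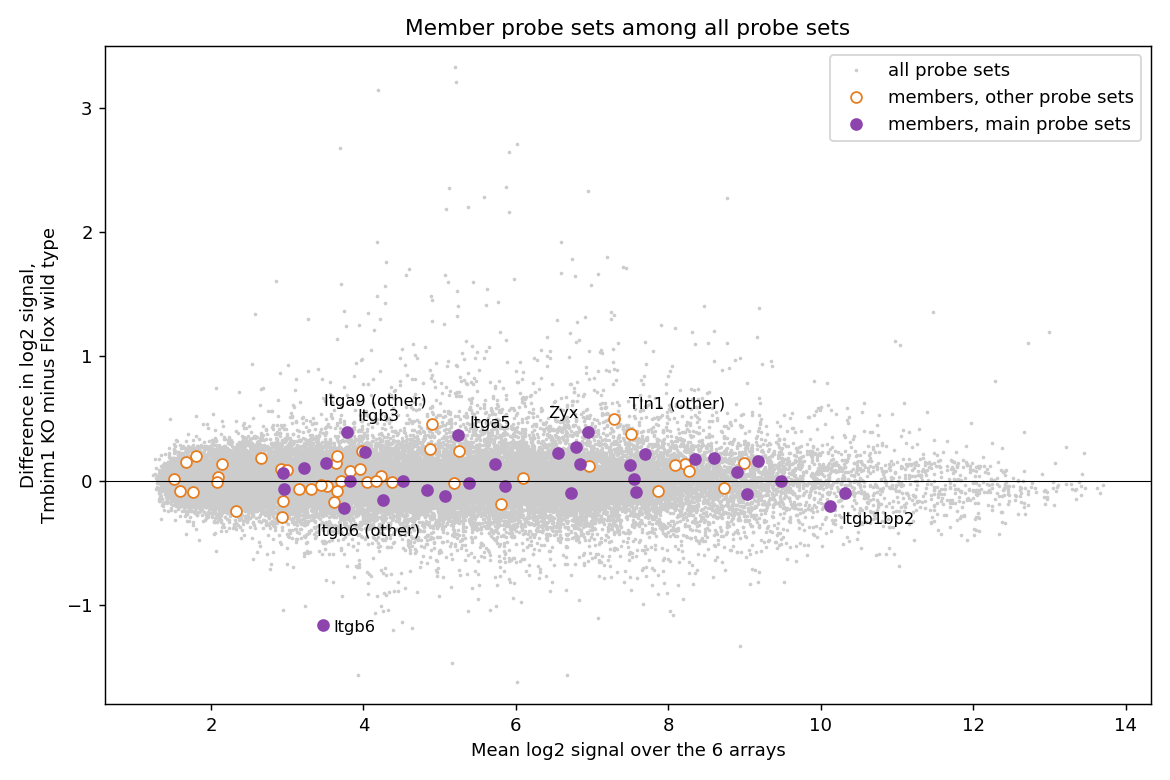
Difference in log2 signal, Tmbim1 KO minus Flox wild type, against the mean log2 signal over the 6 arrays, for all 38195 probe sets (grey), the 34 main probe sets of the members (filled) and their other 45 probe sets (open). Itgb6 is dim and lies far below 0, while the bright members stay close to 0.

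The matrix and cell surface proteins that integrins bind were measured in the same hearts. Of 30 ligand genes measured, 1 rose, the collagen gene Col3a1, and 0 fell, with 18 positive and a median of 0.10. Col3a1 was 11.75, 11.60 and 11.66 in Tmbim1 KO hearts, against 11.19, 11.12 and 11.04 in Flox wild type hearts. The groups did not overlap (difference 0.55, SE 0.10, limma adjusted p = 0.0481). Leaving out any single array ended this call, with limma adjusted p between 0.0839 and 0.212, in a check added after the value was seen. In the same check the call was also lost with the mean of the gene's probe sets (0.57, limma adjusted p = 0.127) and without both Tmbim1 KO replicate 1 and Flox wild type replicate 3 (0.47, limma adjusted p = 0.418). Before adjustment, a limma p under 0.05 belonged to 9 ligand genes with a positive and 3 with a negative difference, out of 30, against 5.19% and 6.33% of all genes. The ligand list was chosen with earlier results of these data known, so these counts are a description only. The genes next in order of p, named after their values were seen, did not pass, and none of them overlapped between the groups. The matricellular genes Ccn2 and Ccn1 were at 0.61 and 0.71 (limma adjusted p = 0.0797 and 0.0886), the thrombospondin gene Thbs1 at 0.67 (0.114) and the collagen gene Col1a1 at 0.40 (0.128). Vtn, the alpha v ligand vitronectin, was at -0.62 (limma adjusted p = 0.150), and the tenascin C gene Tnc, a ligand of alpha 9 and of alpha v with beta 6, at 0.78 (0.196). Vtn was 6.67, 6.63 and 6.89 in Tmbim1 KO hearts, against 7.07, 7.30 and 7.67 in Flox wild type hearts. Besides Vtn, the negative ligand genes with an unadjusted limma p under 0.05 were the laminin genes Lama5 and Lamb2. They were at -0.38 and -0.29 (limma adjusted p = 0.233 and 0.427), without overlap between the groups. The laminin genes Lamb1, Lama4, Lamc1 and Lama2 were also negative, at -0.22, -0.15, -0.08 and -0.04, with overlapping groups. Postn, which encodes the matrix protein periostin, was at 1.09, but Flox wild type replicate 3 stood at 8.98, far below the 10.98 to 11.52 of the other Flox wild type hearts (limma adjusted p = 0.496). Fibroblast markers in the same hearts had a summed linear signal of 13070 to 14400 in Tmbim1 KO hearts and 9461 to 13550 in Flox wild type hearts, and 0 of 10 passed. The low end was Flox wild type replicate 3, while Flox wild type replicates 1 and 2 stood at 12830 and 13550. Of these markers 8 were positive, with a median of 0.27. Before adjustment, 4 (40%) with a positive and 1 (10%) with a negative difference had a limma p under 0.05. Col1a1 is on both lists. The part of these markers in the ligand values was not tested.

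Of 45 other focal adhesion and adaptor genes measured, 0 passed by limma, 32 were positive and the median was 0.09. Before adjustment, 9 (20%) with a positive and 1 (2.22%) with a negative difference had a limma p under 0.05, against 5.19% and 6.33% of all genes. This list, too, was chosen with earlier results of these data known, so its shares are a description only. The 4 with the smallest p were Tes, a zyxin partner, at 0.42 (limma adjusted p = 0.161), the actin cross-linker Actn1 at 0.61 (0.180), the adaptor Fblim1 at -0.40 (0.203) and the GTPase Rap1b, which acts in integrin activation, at 0.33 (0.331). Actn1 was 7.66, 7.52 and 7.81 in Tmbim1 KO hearts, against 7.28, 7.21 and 6.66 in Flox wild type hearts. Fblim1, which links kindlin to filamin, was 8.57, 8.67 and 8.89 in Tmbim1 KO hearts, against 9.16, 9.16 and 8.99 in Flox wild type hearts. The groups did not overlap for either gene.

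**Figure D5:**
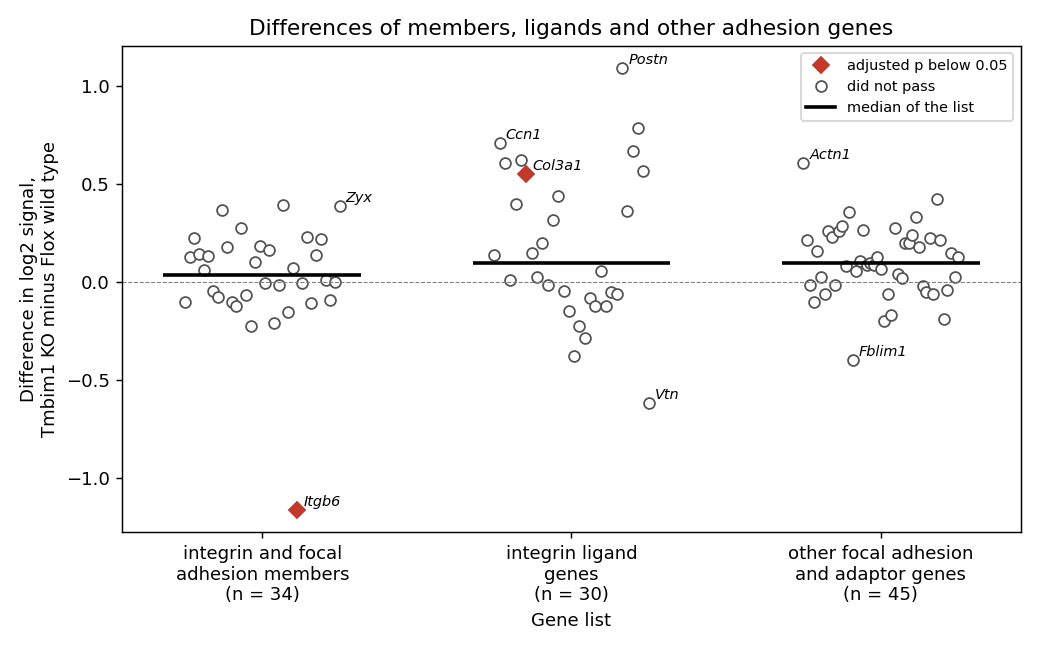
Difference in log2 signal, Tmbim1 KO minus Flox wild type, of the 34 members, 30 integrin ligand genes and 45 other focal adhesion and adaptor genes, with a line at each list's median (0.04, 0.10 and 0.09). Itgb6 and Col3a1 are the filled points past the threshold, and genes are spread sideways in alphabetical order.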

How the data were processed

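Per the labels, each array holds biotin-labelled cRNA from 400 ng of total heart RNA. The authors deposited 1 log2 signal for each probe set and array. The submitters' processing notes name RMA and limma; which versions and which settings were used is not given there. RMA removes overall shifts between arrays and can compress differences of dim and bright probe sets. Of 38208 rows, 13 control probe sets were left out. The platform annotation gave 34325 probe sets 1 symbol, 62 several and 3808 none. No scan dates or detection calls were used here and no batch was tested, and the number of arrays limits the precision.

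Tmbim1 KO was compared with Flox wild type by limma 3.58.1 (R 4.3.3), two-sided, over all probe sets without a filter on dim signals. In simulated data with 38195 probe sets it recovered 6 of 67 changes of 0.5, 59 of 67 of 1 and 66 of 66 of 2 on the log2 scale, with 3 false calls of 134. The simulated noise was independent and alike on all arrays, without an outlying array or compression of dim signals. The counts may therefore not carry over to the real arrays. Members shown with every array value had an adjusted p under 0.05 at any probe set, an unadjusted p under 0.05, 1 of the 3 largest differences in either direction, or a place on a list of central adhesion genes. Members and lists were chosen with earlier results of these data known, so their shares beside those of all genes are descriptions and no test. The alternatives were a replicate block, other variance priors and normalizations, array weights, a filter on dim probe sets, averaging a gene's probe sets and single arrays left out. Marker lists for endothelium (0 of 10 measured genes passed), smooth muscle and pericytes (0 of 10) and atria (1 of 9, Nppa) were also read.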

Additional observations from a re-analysis of the deposited data

How the results depend on the processing

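Of the differences of members in the alternatives with all 6 arrays or without 2 of them, 286 kept their direction and side of the threshold, 12 changed direction and 3 (Itgb6) lost the call. With single arrays left out, 180 kept both, 19 changed direction and 5 (Itgb6) lost the call. The count of members past the threshold, and that of member probe sets, was 0 in place of 1 under the replicate block and under a filter at the 40th percentile of mean signal, which leaves out Itgb6. The members' count was also 0 when the probe sets of each gene were averaged, and without both Tmbim1 KO replicate 1 and Flox wild type replicate 3. With single arrays left out, both counts ranged from 0 to 1, the count of all probe sets from 38 to 86 against 161, and the Itgb6 difference from -1.40 to -1.03. Under the replicate block, Itgb6 had a limma adjusted p of 0.0525 and Col3a1 one of 0.0685, so both calls were lost, and 168 probe sets passed. Deviations of same-numbered arrays correlated at 0.0603, 0.138 and 0.0155, and those of different-numbered arrays at -0.144 to 0.0753. These values do not settle whether the numbers pair the mice. The main comparison used no block because the series text gives no pairing. Differences that changed direction were all uncalled, and the cause was not tested. With probe sets averaged these were Itga3 (0.00620), Itga4 (0.0622), Itga8 (0.0284), Lims1 (0.0421) and Vcl (-0.144), and with median centring Vcl (-0.000314). With 1 array, or both arrays named above, left out, direction turned within the ranges of Itga3 (-0.110 to 0.0239), Itga8 (-0.331 to 0.0838), Itgav (-0.0379 to 0.333), Itgax (-0.146 to 0.114), Itgb2 (-0.116 to 0.0610), Itgb5 (-0.158 to 0.252), Itgb7 (-0.0881 to 0.0400), Itgb8 (-0.00296 to 0.439), Tln1 (-0.0452 to 0.0645) and Vcl (-0.0654 to 0.0495). The 3 arrays in each group, and signals near the lower quartile for Itgb6, limit what could be seen.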

Other observations

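Integrin-named genes outside the member rule gave 0 further calls by limma, and 0 of their main probe sets had an unadjusted p under 0.05. Itgbl1, a secreted protein gene with integrin-like repeats, stood at 7.73, 7.96 and 7.64 in Tmbim1 KO hearts, against 7.63, 7.39 and 5.62 in Flox wild type hearts. The groups did not overlap, and Flox wild type replicate 3 was far below the other arrays (difference 0.89, SE 0.42, limma adjusted p = 0.496). Itgb3bp was at 0.23, the beta 1 tail binder Itgb1bp1 at 0.13 and Itgb2l at 0.09, each with overlapping groups.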
